A study of Homo sapiens with 8 samples.

Results

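The 10 genes described here are markers that have been used to find stem-like cells in colorectal cancer: the surface proteins PROM1 (CD133), CD44, ALCAM (CD166) and EPCAM, the enzymes ALDH1A1 and ALDH1A3, the transcription factors SOX9 and KLF4, the chromatin protein BMI1 and the kinase DCLK1. They were taken by gene symbol from a list of known markers, and all 10 were found among the 19124 genes measured. Messenger RNA was sequenced in HCT116 and HT29, established human colorectal cancer cell lines grown in RPMI medium. Each line was transfected with Lipofectamine 2000 and 15 nM of a negative control siRNA (NC) or of an siRNA against RPL9, RPL17 or RPL27, which encode proteins of the large ribosomal subunit, and total RNA was taken after 48 h. No other treatment is named, and the NC cells also received the transfection reagent and an siRNA. There is 1 library for each of the 4 siRNAs in each of the 2 lines, so 8 in all, with no repeat of any siRNA in a line. In the tests of the siRNAs the 2 lines serve as the replicates, and in the tests of the lines the 4 siRNAs do. The labels do not say whether the libraries of a line came from separate cultures, so p-values measure only the spread between these libraries.

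The deposited values are RPKM, a read density per kilobase scaled to library size. They scale roughly as sums of exon densities would, so the tests compare each gene between libraries and not with another gene. Levels summed over lists of cell type markers, given near the end, are rough descriptions and do not measure cell content. Libraries were estimated at 20.6 to 26.7 M (mega) reads, a rough figure, and 13.1% to 15.7% of genes were listed at 0. Each targeted gene stood at 28.97% to 34.1% of its mean level in the other RPL siRNA libraries of the same line. The HT29 NC library stood apart from the rest. Its deviation from the median of the other libraries fell with transcript length, with a Spearman rank correlation of -0.60 across 11467 genes, against 0.01 to 0.16 in the other 7 libraries. The median deviation went from 0.72 (log2) in the 1148 genes of the shortest transcripts to -1.42 in the 1147 of the longest. Genes are not independent replicates, so these are descriptions. Of the 10 markers, 8 lie in length bins whose median was below 0 in that library, all but EPCAM and ALDH1A1, so comparisons with NC are also given below without it or with the trend removed.

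In the intestine, stem cells at the base of the crypts divide under Wnt signalling and supply the cells that differentiate as they move up. Colorectal tumours hold cells with part of that program, and since no single gene defines them, surface proteins, aldehyde dehydrogenase activity and transcription factors are used together. The surface markers are adhesion and membrane proteins carried by many epithelial cells, ALDH1A1 and ALDH1A3 oxidise retinal to retinoic acid, SOX9 and KLF4 stand for crypt-base and pluripotency programs, BMI1 is a subunit of Polycomb repressive complex 1, and DCLK1 marks tuft cells and some tumour cells. In RNA from a whole culture, fewer cells carrying a gene and less of its RNA per cell cannot be told apart.

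**Figure D1:**
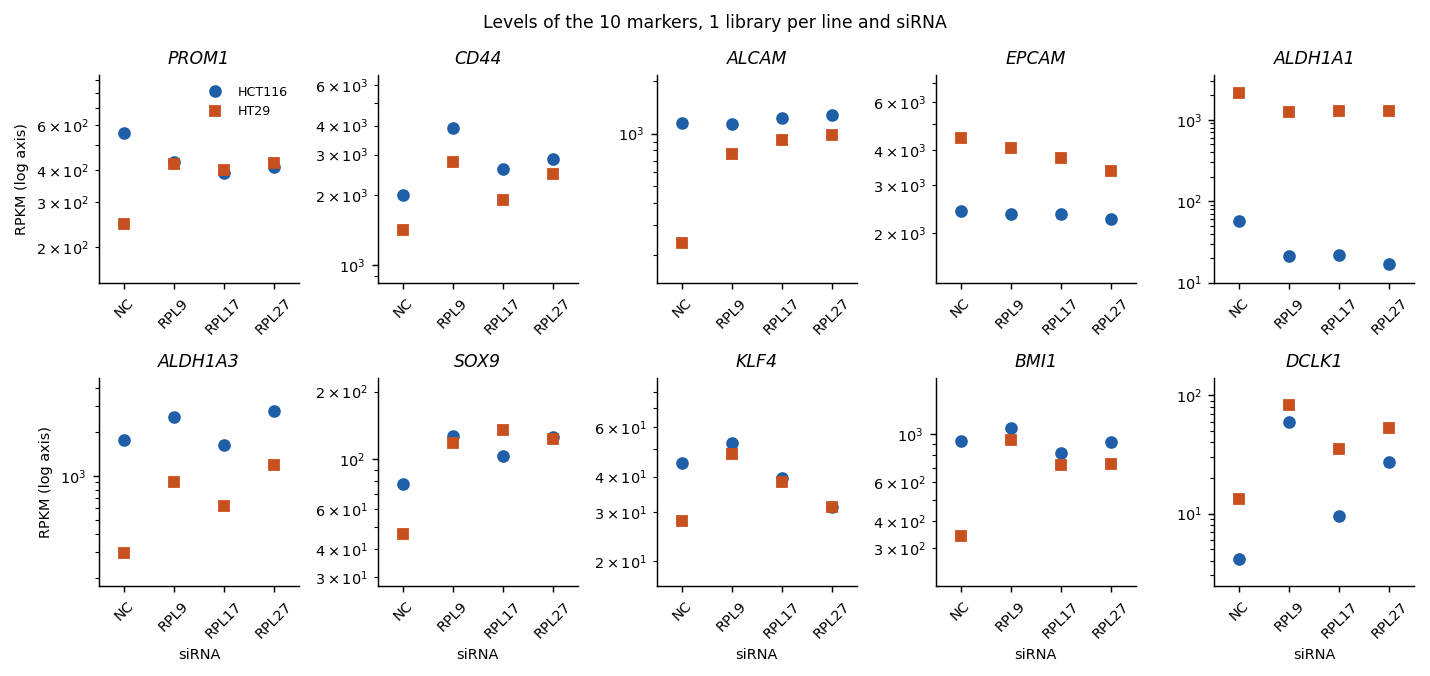
RPKM (log axis, a scale of its own in each panel) of the 10 markers by siRNA, circles for HCT116 and squares for HT29, with 1 library per point. ALDH1A1 is at or above 1251 in every HT29 library and below 58 in every HCT116 library, DCLK1 is highest under RPL9 siRNA in both lines, and the HT29 NC library is the lowest of the 4 HT29 libraries for 8 of the 10 genes.

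Promoter sequences are shown for the genes on which the results below turn: the aldehyde dehydrogenase pair, which differed between the lines in opposite directions, and CD44 and DCLK1, which had higher values than NC in all 6 RPL siRNA libraries. They were taken from RefSeq on GRCh38.p14, not from the hg19 build of the deposited values, as the 250 bases before the listed start, or 56 bases for DCLK1, and are written 5′ to 3′ on the gene's strand. Capitals mark matches on either strand to the GC box (GGGCGG), the CCAAT box (CCAAT) and the AP-1 element (TGANTCA). All 35116 promoters of that table, in windows of 250 bases, hold these motifs in 42.6%, 32% and 6.57% of cases. TATAAA, which none of the sequences shown holds, is found in 10.7%. Shares in windows of 56 bases, the length shown for DCLK1, were not computed. A match is a description of letters and not of binding.
ALDH1A1, chr9:72953054-72953303, minus strand: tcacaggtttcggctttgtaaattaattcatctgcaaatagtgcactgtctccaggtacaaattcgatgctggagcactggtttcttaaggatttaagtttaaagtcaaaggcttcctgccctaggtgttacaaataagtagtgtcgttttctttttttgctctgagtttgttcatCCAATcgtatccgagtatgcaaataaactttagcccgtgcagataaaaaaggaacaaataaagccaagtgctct
ALDH1A3, chr15:100879581-100879830, plus strand: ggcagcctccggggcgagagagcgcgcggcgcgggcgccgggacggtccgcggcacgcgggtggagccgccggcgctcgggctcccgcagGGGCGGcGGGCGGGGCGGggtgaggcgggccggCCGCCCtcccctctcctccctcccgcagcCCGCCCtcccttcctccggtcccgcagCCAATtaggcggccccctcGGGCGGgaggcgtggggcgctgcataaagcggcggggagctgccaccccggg
CD44, chr11:35138921-35139170, plus strand: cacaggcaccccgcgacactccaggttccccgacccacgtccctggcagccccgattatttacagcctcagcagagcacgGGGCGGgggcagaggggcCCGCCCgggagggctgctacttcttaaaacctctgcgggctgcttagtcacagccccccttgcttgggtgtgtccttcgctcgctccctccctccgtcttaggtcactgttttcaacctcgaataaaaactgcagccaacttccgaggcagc
DCLK1, chr13:35855862-35855917, minus strand: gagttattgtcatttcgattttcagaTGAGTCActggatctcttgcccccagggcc

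The ALDH1A1 window has 38.4% G and C, 6 CpG dinucleotides, 1 CCAAT box and no GC box. The ALDH1A3 window has 82.4% G and C, 38 CpG, 1 CCAAT box and 6 GC box matches, of which 2 share a base. The median over all promoters was 58.0% G and C with 11 CpG, so the pair lie on opposite sides of it. CD44 lies between them, with 62.4% G and C, 15 CpG and 2 GC box matches. DCLK1 has 3 listed starts, and the transcript named in the deposited tables, NM_001195415, begins 276.1 kb downstream of the first of them (GENCODE v29). Its 56 bases just upstream are shown, with 1 AP-1 match. The listed window of 250 bases that spans that start holds these 56 bases and the first 194 of the transcript. It has 50.8% G and C and 2 AP-1 matches, 1 on each side of the start, while the most GC-rich of the other DCLK1 windows has 68.8% G and C and 22 CpG. A single value per gene is deposited, so the values below do not separate the starts. EPCAM and SOX9 are named only.

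The lines were compared first, across all 4 siRNAs. ALDH1A1 was far lower in HCT116 than in HT29, EPCAM was lower, and ALDH1A3 was higher. These 3 of the 10 markers passed the test in limma's fit at a Benjamini-Hochberg adjusted p under 0.05 (1 higher and 2 lower in HCT116), against 3.61% of all 14281 genes tested. The median difference of the 10 markers was 0.24 (log2) and that of all tested genes 0.09. All 10 markers passed the filter on low values, which removed genes averaging under 1 RPKM.

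ALDH1A1 and ALDH1A3 are cytosolic retinal dehydrogenases and the main enzymes behind the aldehyde dehydrogenase activity by which stem-like tumour cells are sorted. ALDH1A1 stood at 57.1, 21.3, 21.7 and 16.8 RPKM in HCT116 under NC, RPL9, RPL17 and RPL27 siRNA. In HT29, in the same order, it stood at 2110.1, 1251, 1277 and 1267 RPKM. The lines were fully apart: the highest HCT116 library lay far below the lowest HT29 library, and HCT116 held 1.32% to 2.71% of the HT29 level. The log2 difference, HCT116 minus HT29, was -5.74 (SE 0.20, limma adjusted p = 0.000303).

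ALDH1A3 had the opposite order. It stood at 1755, 2519, 1616 and 2763 RPKM in HCT116 and at 297, 912, 625 and 1191 RPKM in HT29, under NC, RPL9, RPL17 and RPL27 siRNA. Every HCT116 library was above every HT29 library, and the log2 difference was 1.65 (SE 0.24, limma adjusted p = 0.0241). The ratio was not even across siRNAs: 5.91-fold under NC and 2.32-fold to 2.76-fold under the RPL siRNAs, and on the 6 RPL siRNA libraries alone the log2 difference was 1.35.

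EPCAM, an adhesion protein of simple epithelia and the antigen most used to capture carcinoma cells, was nearly even in HCT116. In HT29 it was down to 76.1% of NC under RPL27 siRNA. It stood at 2419, 2356, 2352 and 2248 RPKM in HCT116 and at 4431, 4078, 3755 and 3374 RPKM in HT29, again in the order NC, RPL9, RPL17, RPL27. All HT29 libraries were above all HCT116 libraries, with HCT116 at 0.546 to 0.666 of the HT29 level, and the log2 difference was -0.73 (SE 0.11, limma adjusted p = 0.0259). With the genome-wide median of each library set equal the difference was -0.80 and its adjusted p 0.0615. Both ALDH1A3 and EPCAM also lost the call when any 1 RPL siRNA library was left out (adjusted p from 0.0827 to 0.124 and from 0.153 to 0.201), with differences still of at least 1.71 for ALDH1A3 and between -0.78 and -0.71 for EPCAM. ALDH1A1 kept it in every such fit.

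ALCAM, an adhesion protein of the immunoglobulin superfamily, was also above every HT29 library in HCT116, but by very different amounts. It stood at 1155, 1138, 1231 and 1288 RPKM in HCT116 and at 234.6, 760.4, 916 and 986 RPKM in HT29. The ratio was 4.92-fold under NC and 1.31-fold to 1.496-fold under the RPL siRNAs. The log2 difference of 0.92 (SE 0.35) did not pass the test (limma adjusted p = 0.23). Groups that do not overlap between the lines were thus found for 4 markers: ALCAM and ALDH1A3 above HT29, as for 5.92% of all tested genes, and EPCAM and ALDH1A1 below it, as for 6.97%.

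The other 6 markers overlapped between the lines. CD44, the receptor for hyaluronan and a Wnt target in the crypt, was 1.16-fold to 1.40-fold higher in HCT116 under each siRNA, with a log2 difference of 0.41 (SE 0.11, limma adjusted p = 0.134). DCLK1 was lower in HCT116 under each siRNA, at -1.16 (SE 0.28, limma adjusted p = 0.0987). BMI1 differed by 0.54 (SE 0.24, limma adjusted p = 0.296). PROM1, SOX9 and KLF4 had differences of 0.28, 0.12 and 0.21 with adjusted p of 0.568, 0.799 and 0.610. PROM1 and SOX9 changed sign on the RPL siRNA libraries alone, to -0.02 and -0.09.

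On the 6 RPL siRNA libraries alone, which leaves out both NC libraries, 7 of the 10 markers passed the test between the lines, against 23.3% of the 14217 genes tested there. The further 4 were CD44 (0.38), ALCAM (0.46), BMI1 (0.24) and DCLK1 (-1.05), with limma adjusted p of 0.0110, 0.00577, 0.0450 and 0.0402. The largest part of the line difference of PROM1, ALCAM and BMI1 thus sat in the NC libraries. PROM1 was 2.26-fold higher in HCT116 under NC and within 0.05 (log2) of HT29 under each RPL siRNA.

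**Figure D2:**
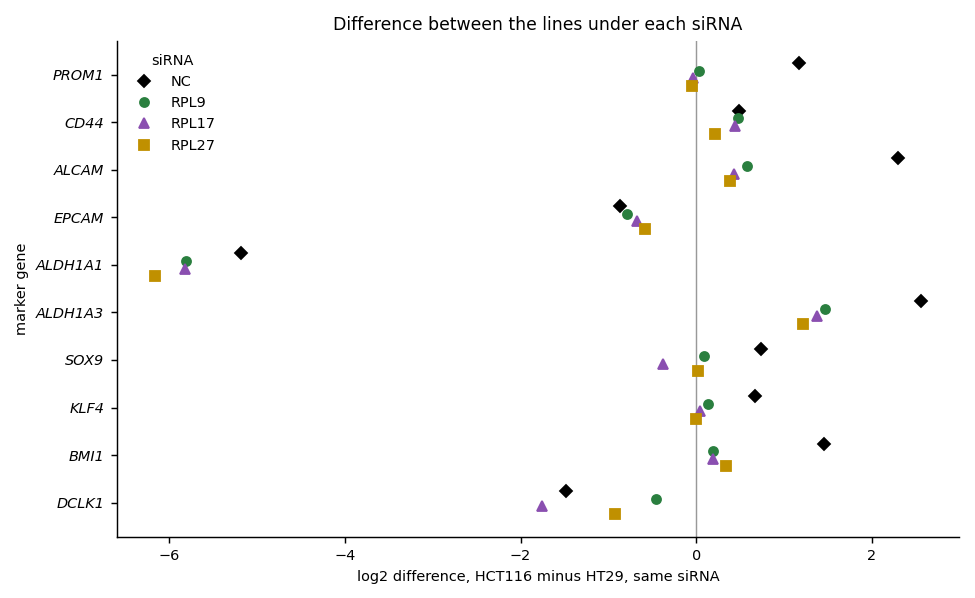
Difference in log2(RPKM + 1) between HCT116 and HT29 for each marker, 1 point per siRNA, with diamonds for NC. The points of ALDH1A1 lie between -6.16 and -5.18, and the NC point lies to the right of all RPL siRNA points for PROM1, ALCAM, ALDH1A1, ALDH1A3, SOX9, KLF4 and BMI1, and by a hair for CD44.

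The next comparison set the 3 RPL siRNAs together, as their mean, against NC, with the line as a term. DCLK1, CD44 and SOX9 had higher values than the NC library of their line in all 6 RPL siRNA libraries, as did 18.0% of all tested genes. EPCAM and ALDH1A1 had lower values in all 6, as did 13.0%. No marker passed the test, against 0.168% of all tested genes (24 of 14281). An unadjusted p under 0.05 in limma's fit was found for 6 of the 10, and for 3506 of the 14281 genes. The median difference of the markers was 0.64 (log2), and that of all tested genes 0.10.

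DCLK1, a microtubule-binding kinase, had the largest difference. It stood at 4.12, 60.0, 9.60 and 27.6 RPKM in HCT116 under NC, RPL9, RPL17 and RPL27 siRNA. In HT29 it stood at 13.3, 83.0, 34.8 and 53.0 RPKM. NC was the lowest library in each line, and the HCT116 RPL17 library lay below the HT29 NC library, so the groups overlapped across lines. The mean difference from NC was 2.15 (SE 0.32, limma adjusted p = 0.0686). DCLK1 is the longest of the marker transcripts, at 7592 bases, in the bin where HT29 NC was lowest. With the length trend removed the difference was 1.57, with a limma adjusted p of 0.080. The RPL9, RPL17 and RPL27 siRNA libraries then differed from NC by 3.64, 1.10 and 2.51 in HCT116 and by 1.41, 0.08 and 0.69 in HT29.

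CD44 stood at 2000.1, 3906, 2613 and 2859.7 RPKM in HCT116 and at 1426, 2800.1, 1921 and 2468 RPKM in HT29. NC was the lowest in each line. The mean difference was 0.68 (SE 0.13, limma adjusted p = 0.0849). In HT29 it did not hold up against the length trend: with the trend removed, the 3 RPL siRNA libraries differed from NC by 0.07, -0.55 and -0.17 there and by 1.03, 0.44 and 0.55 in HCT116, under RPL9, RPL17 and RPL27 siRNA. The mean was then 0.23 (limma adjusted p = 0.49).

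SOX9, a Wnt-responsive factor of the crypt base, stood at 78.0, 126, 104 and 126 RPKM in HCT116 and at 46.5, 119, 136 and 124 RPKM in HT29. It was the only marker for which all 6 RPL siRNA libraries were above both NC libraries, as for 11.8% of all tested genes. The mean difference was 1.00 (SE 0.26, limma adjusted p = 0.115). With the length trend removed it was 0.77 (adjusted p = 0.055), and the values of the 6 libraries then lay between 0.46 and 1.00.

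ALDH1A1 was the marker with the largest lower value. Its RPL siRNA libraries stood at 29.4% to 38.0% of NC in HCT116 and at 59.3% to 60.5% in HT29. The mean difference was -1.11 (SE 0.23, limma adjusted p = 0.0895). Its transcript of 2107 bases lies in a bin where HT29 NC departed little, by a median of 0.07. With the length trend removed the difference was -1.09, and ALDH1A1 was then the only marker to pass the test (limma adjusted p = 0.0363), against 6.09% of the genes tested in that fit.

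ALDH1A3, ALCAM and BMI1 had higher values than NC in all 3 RPL siRNA libraries of HT29 and no common direction in HCT116. ALDH1A3 stood at 210% to 401% of the NC level in HT29 and at 92.1% to 157% in HCT116, with a mean difference of 0.96 (SE 0.28, limma adjusted p = 0.136). ALCAM stood at 324% to 420.4% in HT29 and at 98.5% to 111% in HCT116, with 0.99 (SE 0.40, limma adjusted p = 0.20). BMI1, the ring-finger partner of the Polycomb ubiquitin ligase, stood at 933, 1067, 822 and 924 RPKM in HCT116 and at 340.2, 937, 720.3 and 731 RPKM in HT29, with 0.61 (SE 0.28, limma adjusted p = 0.241). The read-through gene COMMD3-BMI1 shares exons with BMI1, and how reads were divided between them is not given, so the BMI1 level is uncertain. COMMD3-BMI1 itself differed from NC by 0.28 (SE 0.16, limma adjusted p = 0.306).

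PROM1, a membrane glycoprotein of cell protrusions, lay on opposite sides of NC in the 2 lines. It stood at 557, 432, 390.1 and 411 RPKM in HCT116, where NC was the highest, and at 246, 423, 401 and 426 RPKM in HT29, where NC was the lowest. The RPL siRNA libraries of both lines met at nearly the same level, between 390.1 and 432 RPKM. KLF4, a zinc-finger factor of differentiating colon epithelium and of induced pluripotency, stood at 44.7, 52.8, 39.4 and 31.2 RPKM in HCT116 and at 27.8, 48.1, 38.2 and 31.3 RPKM in HT29. PROM1 and KLF4 each differed from NC by 0.16 on average (SE 0.28 and 0.24), and both turned negative when library medians were set equal, to -0.04 each. EPCAM differed by -0.16 (SE 0.13, limma adjusted p = 0.46).

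Within the lines, 8 markers were above NC in all 3 HT29 RPL siRNA libraries, as were 46.6% of all tested genes, and 2 were below in all 3, as were 32.7%. In HCT116, 3 were above (CD44, SOX9 and DCLK1, against 33.0%) and 3 below (PROM1, EPCAM and ALDH1A1, against 32.4%). The median of all tested genes against NC was 0.17 to 0.20 in the HT29 libraries and within 0.02 of 0 in those of HCT116. Without the HT29 NC library the comparison rests on the HCT116 NC library alone, whose spread is assumed to be that of the other libraries. Then 4 markers passed, against 12.9% of all genes: DCLK1 at 2.37, CD44 at 0.62, ALDH1A1 at -1.48 and PROM1 at -0.44, with limma adjusted p of 0.0208, 0.0158, 0.00970 and 0.0438. Without the HCT116 NC library instead, 9 passed, all but KLF4, against 49.0% of all genes.

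**Figure D3:**
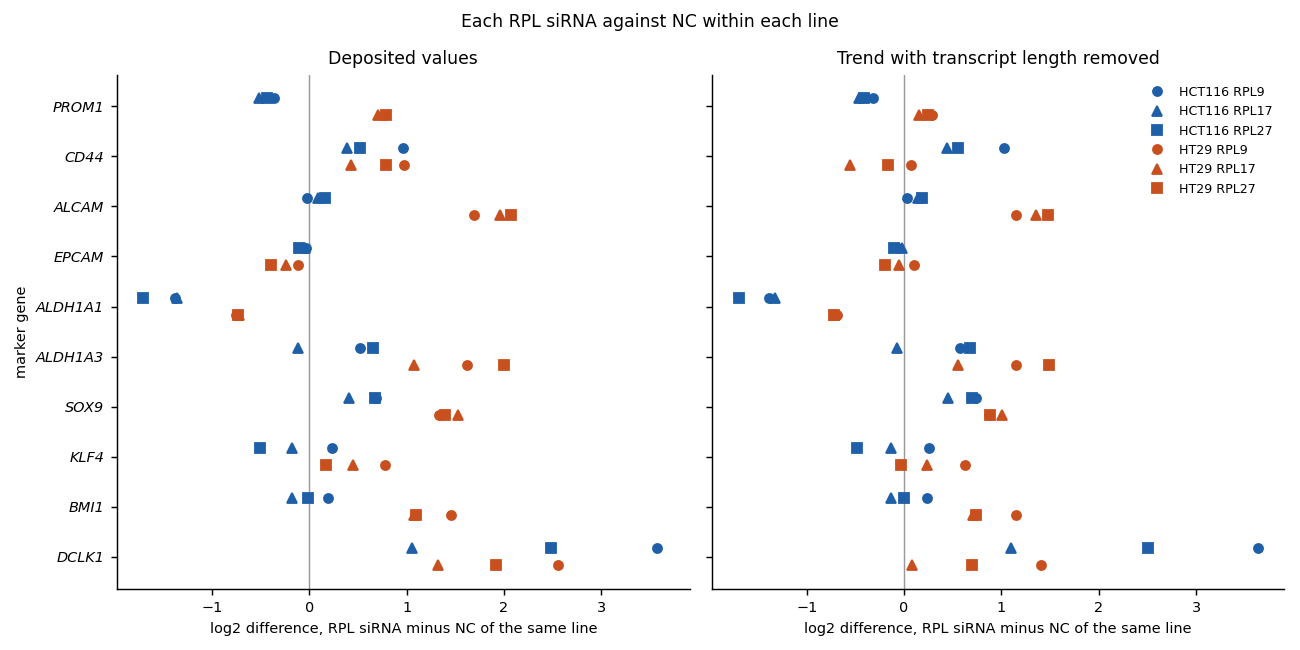
Difference in log2(RPKM + 1) of each RPL siRNA library from the NC library of its line, as deposited (left) and after each library's trend with transcript length was removed (right), with blue for HCT116 and orange for HT29. With the trend removed the HT29 points of the long transcripts move left, CD44 in HT29 spreads over both sides of 0, and ALDH1A1 keeps all 6 points below 0.

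**Figure D4:**
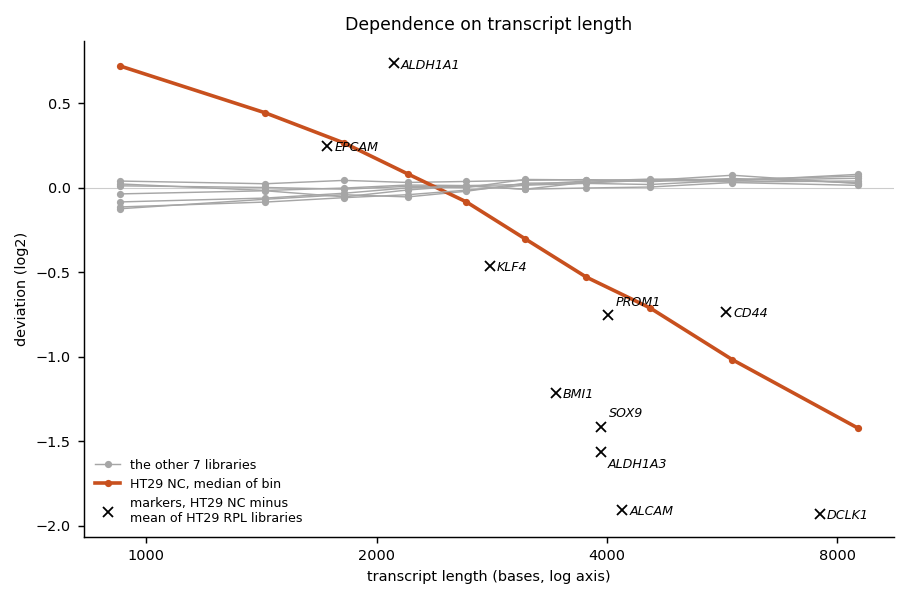
Median deviation (log2) of each library from the median of the others in 10 bins of transcript length (bases, log axis), with the HT29 NC library in orange and the other 7 in grey. Crosses give, for each marker, the HT29 NC library minus the mean of the HT29 RPL siRNA libraries, from 0.74 for ALDH1A1 to -1.93 for DCLK1.

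The plot of deviation against length shows how far each marker lay from its bin in the HT29 NC library. EPCAM (0.25) and PROM1 (-0.76) differed from the mean of the HT29 RPL siRNA libraries by amounts near the medians of their bins, 0.26 and -0.53. ALCAM (-1.91), ALDH1A3 (-1.56), BMI1 (-1.21) and SOX9 (-1.42) lay well below the medians of theirs, -0.72, -0.53, -0.30 and -0.53. DCLK1 (-1.93) and KLF4 (-0.46) lay below theirs by less, at -1.47 and -0.10. ALDH1A1 (0.74) lay above its bin, and CD44 (-0.73) also lay above its own bin, whose median was -1.01. The part of the length trend in each value was not tested gene by gene.

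Each RPL siRNA was also set against NC. No marker passed in any of these 3 comparisons, against 0.00700% of all tested genes under RPL9, 0.0140% under RPL17 and 0% under RPL27 siRNA, which is 1, 2 and 0 genes. An unadjusted p under 0.05 in limma's fit was found for 5, 4 and 5 markers, and for 2913, 2247 and 2390 of the 14281 genes. DCLK1 differed by 3.06 (SE 0.39) under RPL9, 1.19 (SE 0.39) under RPL17 and 2.20 (SE 0.39) under RPL27 siRNA. CD44 differed by 0.97, 0.41 and 0.65 (SE 0.16 each), and ALDH1A1 by -1.07, -1.04 and -1.22 (SE 0.28 each), in the same order. SOX9 differed by 1.01, 0.97 and 1.04 (SE 0.31 each) and ALDH1A3 by 1.07, 0.48 and 1.33 (SE 0.34 each). Those are the markers with an unadjusted p under 0.05, ALDH1A3 only under RPL9 and RPL27 siRNA. ALCAM differed by 0.84, 1.03 and 1.11 and BMI1 by 0.83, 0.45 and 0.54, with SE of 0.49 and 0.35. PROM1 (0.21, 0.09 and 0.18), KLF4 (0.50, 0.14 and -0.17) and EPCAM (-0.08, -0.14 and -0.25) had the smallest mean differences, with SE of 0.35, 0.29 and 0.16. The smallest limma adjusted p were 0.0986 for DCLK1 and 0.104 for CD44, both under RPL9 siRNA. The 3 comparisons share the NC libraries, so likeness between them is not read as a result.

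These values rest in part on the HT29 NC library. With the length trend removed, CD44 differed from NC by 0.55, -0.06 and 0.19, with the siRNAs in the order RPL9, RPL17, RPL27, and DCLK1 by 2.52, 0.59 and 1.60. SOX9 was then at 0.80, 0.73 and 0.79, ALDH1A3 at 0.86, 0.24 and 1.08, and ALDH1A1 at -1.04, -1.02 and -1.21. CD44 thus had the opposite sign under RPL17 siRNA, DCLK1 was closer to NC under each siRNA, and ALDH1A1 moved little. No marker passed in these 3 comparisons with the trend removed, against 472, 49 and 246 of the 14180 genes tested. An unadjusted p under 0.05 in limma's fit was then found for 5, 2 and 5 markers, and for 3564, 2857 and 2919 of those genes. Without the HT29 NC library 4, 1 and 4 markers passed, as did 2169, 975 and 1426 of the 14243 genes tested there. Without the HCT116 NC library 9, 7 and 9 passed, against 46.6%, 44.5% and 44.9%.

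The RPL siRNAs were then set against each other, which does not involve the NC libraries. ALDH1A3 was lowest under RPL17 siRNA and highest under RPL27 siRNA in both lines, with RPL27 above RPL17 by 1.71-fold in HCT116 and 1.91-fold in HT29. In the fit of all 8 libraries no marker and no gene (0%) passed for any of the 3 siRNAs, while an unadjusted p under 0.05 was found for 691 genes with RPL9, 518 with RPL17 and 601 with RPL27. In that fit the spread of the NC libraries enters the error. On the 6 RPL siRNA libraries alone, ALDH1A3 under RPL17 siRNA differed from the mean of the other 2 by -0.72 (SE 0.07, limma adjusted p = 0.0334), against 0.464% of genes that passed. Under RPL27 siRNA it differed by 0.56 (SE 0.07, limma adjusted p = 0.0308), against 1.39%.

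CD44, BMI1 and DCLK1 shared the order RPL9, RPL27, RPL17 from high to low in both lines. On the RPL siRNA libraries alone, none passed under RPL9 siRNA, against 0.816% of genes. CD44 differed there by 0.44 (limma adjusted p = 0.0544), DCLK1 by 1.37 (0.0836 as adjusted p) and BMI1 by 0.33 (0.0824 as adjusted p). With the length trend also removed, a setting chosen after seeing the data, CD44 passed at 0.48 (limma adjusted p = 0.0442), against 1.04%. DCLK1 spanned 6.25-fold between its highest and lowest RPL siRNA library in HCT116 and 2.38-fold in HT29, the widest of the 10 markers in both lines.

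KLF4 and EPCAM shared the order RPL9, RPL17, RPL27 in both lines. KLF4 went from 52.8 to 31.2 RPKM over that order in HCT116 and from 48.1 to 31.3 RPKM in HT29. These are nearly the same values in each line. Its difference under RPL9 siRNA of 0.52 did not pass on the RPL siRNA libraries alone (limma adjusted p = 0.169). Nor did it pass in the fit of all 8 libraries. ALCAM had the order RPL27, RPL17, RPL9 in both lines. In all, 7 of the 10 markers kept one order of the 3 RPL siRNAs in both lines, as did 30.4% of all tested genes. PROM1, ALDH1A1 and SOX9 did not, and their RPL siRNA libraries lay within 1.29-fold of each other in each line. In the fit of all 8 libraries their differences from the mean of the other 2 siRNAs lay between -0.17 and 0.10, and those of ALCAM and EPCAM between -0.23 and 0.18.

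**Figure D5:**
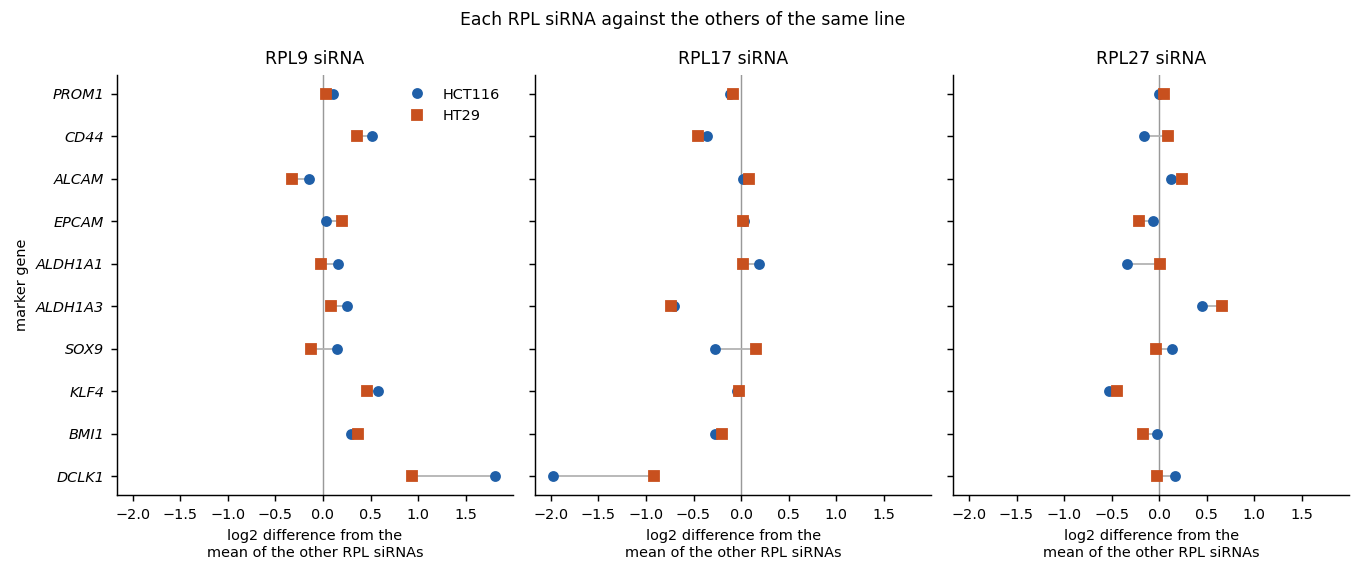
Difference in log2(RPKM + 1) of each RPL siRNA library from the mean of the other RPL siRNA libraries of its line, circles for HCT116 and squares for HT29. The 2 lines lie close for ALDH1A3 (-0.71 and -0.74 under RPL17 siRNA) and KLF4 (0.58 and 0.46 under RPL9 siRNA) and farther apart for DCLK1 (1.81 and 0.93 under RPL9 siRNA).

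Whether the response to the RPL siRNAs differed between the lines was tested with an interaction term, which treats 3 different RPL siRNAs as replicates and has 1 NC library per line. The response, HCT116 minus HT29, was lower for ALCAM (-1.83, SE 0.23, limma adjusted p = 0.00187), PROM1 (-1.19, SE 0.19, limma adjusted p = 0.00469) and BMI1 (-1.21, SE 0.28, limma adjusted p = 0.0197). These are 3 of the 10 markers, against 22.9% of all tested genes in either direction and 16.8% that were lower. The direction depended on the scaling: of the genes that passed, 873 were higher and 2393 lower in this fit, and 2135 higher and 1405 lower with library medians set equal. In that setting PROM1 and ALCAM were still lower, BMI1 did not pass (-0.77, limma adjusted p = 0.0858), and EPCAM passed as higher (0.63, limma adjusted p = 0.0355). BMI1 also missed the threshold without limma's trend (adjusted p = 0.0550). With the length trend removed, ALCAM alone passed, at -1.21 (limma adjusted p = 0.0194), against 7.55%, and PROM1 and BMI1 had adjusted p of 0.104 and 0.136. ALDH1A1 (-0.74), ALDH1A3 (-1.21), SOX9 (-0.83), KLF4 (-0.61), CD44 (-0.11), DCLK1 (0.44) and EPCAM (0.19) did not pass in the fit reported first. That of CD44 turned positive, to 0.33 with library medians set equal and to 0.89 with the length trend removed.

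Related genes were read from lists chosen by function. Between the lines, 2.88% of all tested genes were lower in HCT116 and 0.721% higher. There, 2 of 21 tested intestinal and other colorectal stem cell markers were lower in HCT116 and none higher: CD24 (-4.51), a mucin-like surface protein, and LGR5 (-3.69), the R-spondin receptor of crypt-base stem cells. LGR5 stood at 0.15 to 1.92 RPKM in HCT116 and at 7.64 to 39.8 RPKM in HT29. On the RPL siRNA libraries alone, 12 of the list were lower in HCT116 and 2 higher, against 11.8% and 11.4% of all genes, with LGR4 (-2.75) and PTPRO (-2.49) next after CD24 and LGR5. PTPRO stood at 0 to 0.02 RPKM in HCT116, so the size of its difference depends on the 1 RPKM added before log2 was taken. Of the 16 tested pluripotency factors and relatives of KLF4 and SOX9, only KLF5 (-1.37), the crypt counterpart of KLF4, passed. None of 20 subunits of Polycomb repressive complex 1 did, with 5 at an unadjusted p under 0.05 in limma's fit, as were 2763 of all 14281 tested genes.

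Among 29 tested aldehyde dehydrogenases and genes of retinoid metabolism, 2 were lower in HCT116 and none higher. They were STRA6 (-3.92), the cell's retinol uptake receptor, and CRABP2 (-0.96), which carries retinoic acid to its nuclear receptor. Of 18 ligands, partners and splicing regulators of CD44, the hyaluronan synthase HAS3 (2.44) and the membrane linker EZR (0.70) were higher. Of 22 partners and relatives of EPCAM, ALCAM and PROM1, 4 were lower in HCT116: the tetraspanin TSPAN8 (-8.94), PROM2 (-2.29), the laminin receptor BCAM (-1.02) and the protease inhibitor SPINT1 (-0.87). TSPAN8 stood at 0 to 1.22 RPKM in HCT116 and at 435 to 901 RPKM in HT29. The size of its difference thus depends on the 1 RPKM added before log2 was taken.

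Against NC, no gene of any of these 6 lists passed for the RPL siRNAs together. An unadjusted p under 0.05 in limma's fit was found for 3 to 9 genes of each list, and for 3506 of all 14281 tested genes. The genes with the largest values whose mean had the same direction in both lines were LGR5 (1.25) and TNFRSF19 (-1.27), KLF6 (1.30) and KLF5 (0.90), PHC3 (1.30) and CBX2 (-1.20), DHRS9 (2.19) and CRABP2 (-1.18), HAS3 (1.86) and SPP1 (-1.12), and FHL2 (1.48) and PROM2 (0.85), in pairs by list. Single libraries went the other way: RPL9 siRNA in HCT116 for LGR5, PHC3 and PROM2, and RPL27 siRNA in HT29 for TNFRSF19. LGR5 reached at most 1.92 RPKM in HCT116. DHRS9 reached at most 1.30 RPKM there and stood at 0 in HT29 NC. TNFRSF19 reached at most 0.95 RPKM in HT29. At such levels the size of the difference depends on the 1 RPKM added before log2 was taken. PHC3 stood at 224 RPKM under NC and 213 to 294 under the RPL siRNAs in HCT116, and at 42.9 against 185 to 265 in HT29. These means carry the HT29 NC library, as those of the markers do. HAS3 makes the ligand of CD44, and stood at 23.9 RPKM under NC and 65.2 to 140.0 RPKM under the RPL siRNAs in HCT116, and at 3.76 against 8.32 to 48.1 RPKM in HT29. Its limma adjusted p was 0.0823. The medians of the 6 lists lay between 0.09 and 0.33, beside 0.10 for all tested genes.

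On the RPL siRNA libraries alone, some genes of these lists passed for 1 siRNA against the other 2, beside 1.39% of all genes under RPL27, 0.816% under RPL9 and 0.464% under RPL17 siRNA. Under RPL27 siRNA, the fatty aldehyde dehydrogenase ALDH3A2 (0.68) was higher. The cystine transporter subunit SLC7A11 (0.93) and the membrane linker MSN (0.44) were also higher, and the CD44 partner MET (-0.67) and the integrin subunit ITGB1 (-0.64) lower. Under RPL9 siRNA, MET (0.58) and the CD44-binding tumour suppressor NF2 (0.60) were higher and MSN (-0.86) lower. No gene of the 6 lists passed under RPL17 siRNA in that fit.

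In the interaction, 6 of the 21 of the stem cell list had a lower response in HCT116 and none a higher one, beside 16.8% of all tested genes that were lower and 6.11% that were higher. The 6 were led by LGR4 (-3.08), ZNRF3 (-1.88), MSI2 (-1.87) and RNF43 (-1.86). A lower response was also found for 5 of 18 CD44 partners, among them SLC7A11 (-4.33) and the CD44-cleaving protease ADAM10 (-1.85), and for 4 of 20 Polycomb subunits, led by PCGF5 (-2.81), with RING1 (0.96) in the other direction. It was found for ADAM17 (-1.04) and PROM2 (-1.37) of the 22 partners of EPCAM, ALCAM and PROM1, for KLF3 (-2.24) of the 16 pluripotency factors and relatives, and for ALDH1L2 (-1.96) of the 29 aldehyde dehydrogenases and retinoid genes, none of these lists having a higher one. These counts carry the HT29 NC library, as those of the markers do. Their directions are given only for the fit reported first, and the direction among all genes depended on the scaling, as said above.

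Markers of the labelled tissue and of other cell types were read beside these results. Of 12 markers of colon epithelium, CDX1, CDH17 and GPA33 stood at 0 to 8.28 RPKM in every library. KRT8, KRT18, KRT19 and CDH1 were well expressed in both lines. VIL1, LGALS4 and KRT20 were high in HT29, while in HCT116 they reached 2.89, 12.0 and 16.3 RPKM at most. The summed level of the list was 17260 to 29230 RPKM in HCT116 and 40610 to 47140 RPKM in HT29. In the test between the lines, 5 of its 11 tested members were lower in HCT116, beside 2.88% of all tested genes. EPCAM and ALDH1A1 were lower there too. The part of that difference in the marker results was not tested. The summed level of 10 fibroblast and stroma markers was 366 to 536 RPKM, nearly all from COL1A1 and ACTA2, and DCN, LUM and PDGFRA stayed below 1 RPKM. The 8 leukocyte markers summed to 102 to 161.0 RPKM in HCT116 and 1941 to 3070 RPKM in HT29, where LYZ, also a product of intestinal epithelium, made up most, and PTPRC stayed below 2 RPKM. The 6 endothelial markers summed to 1.09 to 10.9 RPKM.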

How the data were processed

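CASAVA 1.8.2, TopHat2 2.0.9 and the hg19 build are named in the submitters' processing notes. Per the labels, libraries were made from total RNA with a TruSeq kit. The authors deposited RPKM, 1 value per gene symbol and library. How reads were assigned to genes is not stated in the sources used here. From the deposited RPKM, log2(RPKM + 1) was computed, and the 14281 genes averaging 1 RPKM or more were tested with limma 3.58.1 (trend) in R 4.3.3, with terms for line and siRNA (3 residual degrees of freedom). The difference in response used line, any RPL siRNA and their interaction (4 residual degrees of freedom). Tests are two-sided, with Benjamini-Hochberg adjustment over all tested genes and a threshold of 0.05. The length trend of each library was removed with a spline of 5 degrees of freedom over 14180 genes with a GENCODE v29 transcript length. Reads per library were estimated from low values of single-exon genes, and no counting intervals were computed because read counts were not analysed here. The fit was tested on simulated data. As alternatives, the pseudocount was 0.1 or 5, the filter was dropped or raised to 5 RPKM, libraries were median-centred or quantile-normalized, limma was run without its trend, each library was left out, the RPL siRNA libraries were taken alone, and the length trend was removed. The markers and the lists of related genes were chosen with earlier results of these data known. All 10 markers are named in every comparison. Of each list at most 4 genes that passed are named, those with the largest difference, or the 2 with the largest value of 1 sign in both lines where none passed. One gene of these lists is not reported here.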

Additional observations from a re-analysis of the deposited data

Results flagged for a closer look

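The response to the RPL siRNAs differed between HCT116 and HT29, by an interaction test in limma, for 3 markers: PROM1 by -1.19, ALCAM by -1.83 and BMI1 by -1.21 (log2, HCT116 minus HT29). All 3 rest on 1 NC library per line, and 22.9% of all tested genes passed the same test. After removal of the length trend the values were -0.63, -1.21 and -0.83, and ALCAM alone passed. BMI1 also did not pass with library medians set equal (-0.77) or without limma's trend. For PROM1 the 3 RPL siRNA libraries lay below NC in HCT116 and above NC in HT29 in both settings.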

How the results depend on the processing

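The labels give no replicate numbers to block on, and the line term already sets each RPL siRNA library beside the NC library of its line. The number of markers that passed between the lines went from 3 to 7 on the RPL siRNA libraries alone, also with the length trend removed. It ranged from 1 to 7 when 1 library was left out, 7 without either NC library and 1 without any RPL siRNA library. For the 3 RPL siRNAs together against NC it went from 0 to 1 with the length trend removed, and from 0 to 9 with 1 library left out (9 without HCT116 NC, 4 without HT29 NC and 0 without any other). For RPL9, RPL17 and RPL27 siRNA against NC these ranges were 0 to 9, 0 to 7 and 0 to 9, the highest without HCT116 NC, where 46.6%, 44.5% and 44.9% of all genes passed. Against the other RPL siRNAs, 1 marker passed for RPL17 and 1 for RPL27 on the RPL siRNA libraries alone, or without either NC library (0 to 1 with 1 library left out), and 1 for RPL9 with the length trend removed too. In the interaction 1 passed with the length trend removed and 2 without limma's trend, and with median-centring BMI1 lost its call and EPCAM passed in the other direction. Settings that reversed a sign concerned values that had not passed in the fit reported. Between the lines, PROM1 went to -0.019 on the RPL siRNA libraries alone (-0.019 to 0.39 with 1 library left out), and SOX9 to -0.090 (-0.090 to 0.28), or -0.027 with the length trend removed too. Against NC, PROM1 went to -0.0023 with quantile normalization, -0.041 with median-centring and -0.084 with the length trend removed (-0.44 to 0.76 with 1 library left out), KLF4 to -0.039 and -0.042 with the first 2 of these (-0.15 to 0.46), and BMI1 spanned -0.00043 to 1.21. Against NC by siRNA, with the length trend removed PROM1 went to -0.013 (RPL9), -0.16 (RPL17) and -0.081 (RPL27), EPCAM to 0.021 (RPL9) and CD44 to -0.056 (RPL17). With quantile normalization and median-centring under RPL17, PROM1 went to -0.076 and -0.10 and KLF4 to -0.055 and -0.063, and with median-centring under RPL27 PROM1 went to -0.025. With 1 library left out, under RPL9 PROM1 spanned -0.39 to 0.80, ALCAM -0.081 to 1.75 and EPCAM -0.17 to 0.016. Under RPL17 PROM1 spanned -0.50 to 0.69, ALDH1A3 -0.13 to 1.08, KLF4 -0.17 to 0.44 and BMI1 -0.16 to 1.06, and under RPL27 PROM1 spanned -0.42 to 0.77, KLF4 -0.47 to 0.14 and BMI1 -0.063 to 1.15. The interaction of CD44 went to 0.33 with median-centring and 0.89 with the length trend removed (-0.28 to 0.011 with 1 library left out), that of EPCAM to -0.014 with the latter, and that of DCLK1 spanned -0.16 to 1.10. ALDH1A3 lost the line call without a filter (limma adjusted p = 0.0619), and EPCAM with median-centring or without limma's trend. The cause of these changes was not tested. The genes that passed numbered 371 to 3878 between the lines (515 in the fit reported; 184 to 3290 with 1 library left out) and 7 to 863 for the mean against NC (24; 0 to 6977 with 1 left out). Depth is only roughly known, which limits statements on DCLK1 in HCT116 NC.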
